A study of Mus musculus with 6 samples.

Results

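*Runx2*, *Sp7*, *Sp6*, *Msx1*, *Msx2*, *Dlx3*, *Dlx5*, *Pax9* and *Barx1* are transcription factor genes of tooth and odontoblast development, taken as the rows of the count table with these gene symbols. They make up 9 of the 53342 genes in the table, each symbol had 1 row, and all 9 passed the filter on low counts that left 24534 genes for testing. RNA sequencing was performed on dental pulp of 3 WT mice and 3 *Mmp13*-/- mice, homozygous for a deficiency of the collagenase gene *Mmp13*, all male, of the C57BL/6 strain and aged 3 months. The methods describe the 3 samples of each genotype as independent biological samples. Molars and column purification of RNA stand in the labels, incisors and TRIzol in the methods, so the tooth type is not settled. The study asked how loss of MMP13 changes gene expression in pulp, and the values here give the level of 9 regulators of that tissue in each genotype.

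In the developing tooth, epithelium and neural crest mesenchyme exchange BMP, FGF, WNT and SHH signals, and the homeobox genes *Msx1*, *Msx2*, *Dlx3*, *Dlx5* and *Barx1* and the paired box gene *Pax9* are switched on in mesenchyme in response to them. *Runx2* binds DNA with its partner CBFB and starts the osteoblast programme, and *Sp7* (Osterix) acts after it. Both are also expressed in cells on the way to becoming odontoblasts, which lie at the edge of the pulp and deposit dentin.

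The targeted gene was checked first. WT samples 2, 4 and 5 had 1009, 1072 and 825.8 normalized counts of *Mmp13*, against 8.85, 30.1 and 64.0 in *Mmp13*-/- samples 1, 2 and 6 (log2 fold change −4.96, adjusted p = 7.67e-05 by the quasi-likelihood test in edgeR), so the labels and the gene go together in every library. A normalized count is the estimated count per TMM-scaled library, on the scale of the mean of the 6 libraries, and fold changes are given as *Mmp13*-/- over WT on the log2 scale. WT libraries held 28442936 to 29980236 counts and the *Mmp13*-/- libraries 21561420 to 26547121, and the 9 genes had between 73.05 and 4938 estimated counts in a library, all above a floor of 3 counts. The libraries differed in make-up. A family of 12 genes with transcripts like that of Gm26870 held 0.0310% to 0.0414% of WT counts and 5.54%, 9.75% and 43.6% in *Mmp13*-/- samples 1, 2 and 6, and sample 6 stood apart from the others. The pulp and odontoblast markers were present, but the 6 skeletal muscle markers summed to 76000 to 91150 CPM (counts scaled to equal depth) in WT and 17660 to 55520 CPM in *Mmp13*-/-, so transcripts of a tissue outside the pulp were abundant in all 6 libraries. No batch or date is given, and effects of library preparation and of genotype cannot be told apart.

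Of the 9 genes, 6 were lower in *Mmp13*-/- pulp and 0 were higher at an adjusted p under 0.05 from edgeR's quasi-likelihood test, against 24.3% of all tested genes lower, 27.3% higher and 51.6% changed in either direction. No member was higher at an unadjusted p under 0.05 either, and DESeq2 and limma also called 0 higher. *Sp7*, *Msx1*, *Msx2*, *Dlx3* and *Dlx5* had every *Mmp13*-/- sample below every WT sample, which held for 29.1% of all tested genes. *Sp6* was the sixth gene called, at the edge of the threshold. Over 2-fold, 0 of the 9 were called by edgeR's quasi-likelihood test or DESeq2 and 2, *Msx1* and *Dlx3*, by limma on the deposited log2 values, against 30.1% of all tested genes in the first of these tests. The median log2 fold change of the 9 genes was −0.66, and that of all tested genes was 0.10. In bulk tissue, fewer cells of a type and less RNA per cell cannot be told apart, and this applies to each gene described here.

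**Figure D1:**
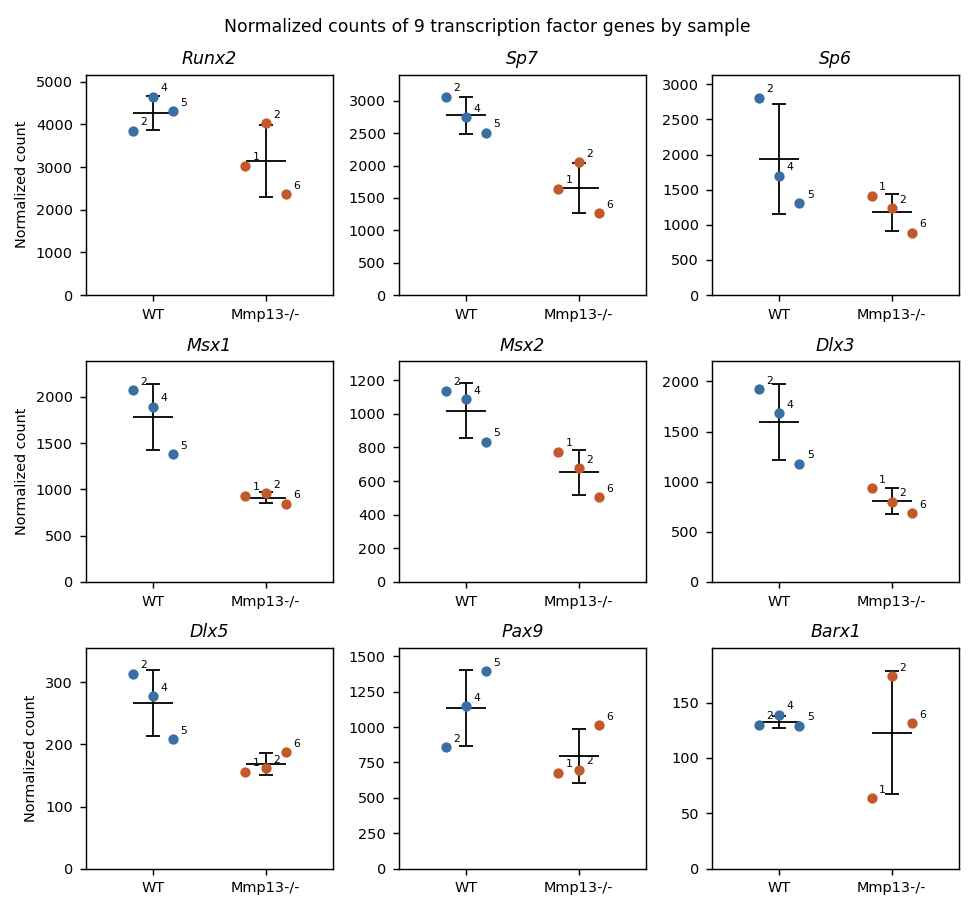
Normalized count of each of the 9 genes (vertical axes, from 0) in WT samples 2, 4 and 5 (blue) and *Mmp13*-/- samples 1, 2 and 6 (orange), with the sample number beside each point and the mean and SD of each genotype in black. The genotypes do not overlap for *Sp7*, *Msx1*, *Msx2*, *Dlx3* and *Dlx5*, and they overlap for *Runx2*, *Sp6*, *Pax9* and *Barx1*.

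The first pair are the regulators of mineralizing cells. *Runx2* (ENSMUSG00000039153, chr17:44495987-44814797, minus strand, GRCm38) encodes the Runt-domain factor at the top of the osteoblast programme. WT samples 2, 4 and 5 had 3849, 4646 and 4306 normalized counts, and *Mmp13*-/- samples 1, 2 and 6 had 3034, 4028 and 2359. WT averaged 4267 ± 400.0 (SD, n = 3) and *Mmp13*-/- 3140 ± 840 (SD, n = 3), and *Mmp13*-/- sample 2 lay inside the WT range while sample 6 was the lowest of the 6. The log2 fold change was −0.44 (standard error 0.20, 95% confidence interval −0.89 to 0.01), and the adjusted p of 0.093 from edgeR's quasi-likelihood test did not pass the threshold. Without *Mmp13*-/- sample 2 the value was −0.72 with an adjusted p of 0.0157 from the same test. With all 6 libraries, *Runx2* was called under 1 of 4 other scalings. Those TMM factors left out the Gm26870 family and the 10 most abundant genes, and gave −0.53 (adjusted p = 0.0349 by the same test). A fit without the filter on low counts gave −0.54 (adjusted p = 0.044 by the same test). The call of *Runx2* thus depended on sample 2, on the scaling and on the filter.

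*Sp7* (ENSMUSG00000060284, chr15:102356606-102367182, minus strand) encodes the zinc finger factor Osterix, required for bone formation after RUNX2. WT samples 2, 4 and 5 had 3063, 2750 and 2507 normalized counts, and *Mmp13*-/- samples 1, 2 and 6 had 1641, 2049 and 1268. The genotypes did not overlap, with 2773 ± 279 in WT and 1653 ± 390.4 in *Mmp13*-/- (SD, n = 3 each), and sample 6 was again the lowest. *Sp7* fell to 59.7% of WT (log2 fold change −0.75, standard error 0.19, adjusted p = 0.00797 by the quasi-likelihood test in edgeR), and it was called with each sample left out in turn.

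The study measured both regulators by qRT-PCR in cultured pulp cells. The counts here are per gene, and the primers are shown because they place that assay on some transcripts of each gene. Each primer was found by exact match in the GENCODE M21 transcripts. Both primers matched 7 of 13 for *Runx2*, with a product of 125 bases, and 2 of 3 for *Sp7*, with a product of 115 bases.
Runx2 forward: cctgaactctgcaccaagtcct
Runx2 reverse: tcatctggctcagataggaggg
Sp7 forward: agaggttcactcgctctgacga
Sp7 reverse: ttgctcaagtggtcgcttctg
The *Runx2* primers lie in different exons, at chr17:44658550-44658571 and chr17:44639755-44639776, so the product crosses a splice junction. Both *Sp7* primers lie in the same exon, at chr15:102358414-102358435 and chr15:102358321-102358341. No qRT-PCR value was used.

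*Sp6* (ENSMUSG00000038560, chr11:97013394-97024734, plus strand), also called epiprofin, belongs to the same SP zinc finger family as *Sp7* and is known for its part in dental epithelium and in odontoblasts. It had 2810, 1701 and 1304 normalized counts in the WT samples, against 1413, 1232 and 887.5 in the *Mmp13*-/- samples. WT sample 2 was far above the rest, and *Mmp13*-/- sample 1 lay above WT sample 5, so the genotypes overlapped. *Sp6* fell by 0.72 on the log2 scale (standard error 0.27, adjusted p = 0.0491 by the quasi-likelihood test in edgeR). The call was lost without WT sample 2 (−0.42, adjusted p = 0.16), WT sample 4 (−0.84, adjusted p = 0.0602), *Mmp13*-/- sample 2 (−0.80, adjusted p = 0.0509) or *Mmp13*-/- sample 6 (−0.55, adjusted p = 0.143).

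The *Sp6* count is uncertain for a further reason. Gm11532, on the opposite strand, shares 3329 of the 3841 exon bases of *Sp6*, or 86.7%. Gm11532 held 49.3% to 50.2% of the summed counts of the pair in WT and 50.1% in each *Mmp13*-/- sample, a near-even division in every library. Whether counting used strand is not given, and the reads of the 2 genes cannot be told apart. Among the other members, the antisense gene *Runx2os1* shares 5.87% of the *Runx2* exon bases and *Slc25a21* shares 3.74% of those of *Pax9*.

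The MSX homeobox genes are targets of BMP signalling in dental mesenchyme. *Msx1* (ENSMUSG00000048450, chr5:37820485-37824583, minus strand) is required for the tooth germ to pass the bud stage. WT samples had 2072, 1894 and 1379 normalized counts, against 930.2, 958.4 and 845.0 in the *Mmp13*-/- samples. The *Mmp13*-/- samples lay close together, at 911 ± 59.0 (SD, n = 3), below the widely spread WT samples at 1782 ± 360.0 (SD, n = 3). *Msx1* fell by 0.97 on the log2 scale (standard error 0.17, adjusted p = 0.00128 by the quasi-likelihood test in edgeR), the smallest adjusted p of the 9 genes.

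*Msx2* (ENSMUSG00000021469, chr13:53466884-53473074, minus strand) acts in enamel epithelium as well as in mesenchyme. It had 1137, 1086 and 833.4 normalized counts in WT, against 774.3, 675.7 and 505.2 in the knockout. WT sample 5 was the lowest of its genotype but stayed above every *Mmp13*-/- sample. *Msx2* fell by 0.64 on the log2 scale (standard error 0.19, adjusted p = 0.0166 by the quasi-likelihood test in edgeR), and leaving out single samples gave −0.84 to −0.49.

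The DLX homeobox genes lie in pairs across the genome, and *Dlx3* and *Dlx5* belong to different pairs. *Dlx3* (ENSMUSG00000001510, chr11:95120119-95125296, plus strand), a gene in which human mutations affect hair, teeth and bone, had 1921, 1682 and 1181 normalized counts in WT, against 936.2, 800.5 and 684.0 in the knockout. The genotypes did not overlap, and *Mmp13*-/- sample 1 came nearest to WT sample 5. *Dlx3* fell by 0.98 on the log2 scale (standard error 0.20, adjusted p = 0.00261 by the quasi-likelihood test in edgeR), the largest fall of the 9. Without WT sample 5 it fell by 1.23, past 2-fold, and *Msx1* by 1.20.

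*Dlx5* (ENSMUSG00000029755, chr6:6877805-6882085, minus strand), known as an activator of *Runx2* and *Sp7* in osteoblasts, had few counts. WT samples 2, 4 and 5 had 313.7, 277.3 and 208.2 normalized counts, and *Mmp13*-/- samples 1, 2 and 6 had 156, 161.8 and 187.9. The genotypes did not overlap, and sample 6 was here the highest of the knockout. *Dlx5* fell by 0.66 on the log2 scale (standard error 0.19, adjusted p = 0.0165 by the quasi-likelihood test in edgeR).

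*Pax9* (ENSMUSG00000001497, chr12:56691767-56712822, plus strand) encodes a paired box factor that marks the sites of future teeth and keeps *Msx1* and *Bmp4* active in mesenchyme. WT samples 2, 4 and 5 had 856.7, 1145 and 1394 normalized counts, and *Mmp13*-/- samples 1, 2 and 6 had 677, 698.6 and 1013. Sample 6, lowest of the knockout for 6 of the other genes, was the highest here and lay inside the WT range. The log2 fold change was −0.51 (standard error 0.21, 95% confidence interval −0.99 to −0.03), with an adjusted p of 0.069 from edgeR's quasi-likelihood test. It passed the threshold without WT sample 2 (−0.76, adjusted p = 0.0147) and without *Mmp13*-/- sample 6 (−0.71, adjusted p = 0.0172).

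*Barx1* (ENSMUSG00000021381, chr13:48662998-48666507, plus strand), a marker of molar mesenchyme in the early jaw, had the fewest counts of the 9. It had 130.1, 139.0 and 128.9 normalized counts in WT, against 63.44, 173.6 and 131.6 in the knockout. The WT samples lay close together, and the knockout held both the lowest and the highest of the 6 values. The log2 fold change was −0.12 (standard error 0.32, 95% confidence interval −0.82 to 0.59, adjusted p = 0.781 by the quasi-likelihood test in edgeR). It moved to 0.15 without *Mmp13*-/- sample 1, so the interval covers changes in both directions.

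Promoter windows from RefSeq (GRCm38.p6) were on hand for 5 of the 9 genes, *Runx2*, *Msx1*, *Msx2*, *Pax9* and *Barx1*. Once bases transcribed in GENCODE were removed, none were left for *Msx2* and *Pax9* and 80 for *Runx2*. The windows of *Msx1*, which fell, and *Barx1*, which did not pass the test, are shown because they set a called gene beside the most GC-rich of the 9. For *Msx1* they are the 250 bases before the start, and for *Barx1* the 212 bases before the GENCODE start, both in the direction of transcription. They were searched on both strands for the GC box bound by SP factors (GGGCGG), the core bound by homeodomain factors such as MSX and DLX (TAATTG) and a RUNX site (TGTGGT). Capitals mark GC boxes on either strand, which may share bases.
Msx1, chr5:37824586-37824835, minus strand: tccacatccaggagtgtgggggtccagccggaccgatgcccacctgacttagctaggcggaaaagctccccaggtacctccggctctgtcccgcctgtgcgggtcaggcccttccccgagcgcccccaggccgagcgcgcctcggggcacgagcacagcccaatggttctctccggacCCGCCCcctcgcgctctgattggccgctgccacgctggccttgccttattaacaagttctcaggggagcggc
Barx1, chr13:48662786-48662997, plus strand: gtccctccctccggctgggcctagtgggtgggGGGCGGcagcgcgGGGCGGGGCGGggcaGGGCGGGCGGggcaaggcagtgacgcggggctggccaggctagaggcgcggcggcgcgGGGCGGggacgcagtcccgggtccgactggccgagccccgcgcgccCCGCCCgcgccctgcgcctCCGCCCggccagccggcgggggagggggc
The *Msx1* window held 1 GC box and was 68.0% G or C, and the *Barx1* window held 8 and was 85.4% G or C. Of 32851 promoters, read over 250 bases, 32.7% held a GC box, 7.2% the homeodomain core and 14.0% the RUNX site. Neither of the last motifs occurred in either window, which says only that these letters are not there.

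Dividing by exon length allows only a rough comparison of genes, since lengths cover all GENCODE exons and base composition was not corrected. Per kilobase of exon, the counts as assigned were highest, among the 9, for *Sp7* in WT. It had 816 ± 82.2 normalized counts per kilobase (SD, n = 3), and its range did not overlap that of the next gene. *Dlx3* (612), *Msx1* (575), *Sp6* (505) and *Runx2* (483) followed with overlapping ranges, and then came *Msx2* (311), *Pax9* (224), *Dlx5* (118) and *Barx1* (94.8). *Runx2* and *Msx2* did not overlap, nor did *Pax9* and *Dlx5*, while the ranges of *Msx2* and *Pax9* and of *Dlx5* and *Barx1* did. In *Mmp13*-/- pulp *Sp7* again had the highest mean, 486 per kilobase, but its range reached into that of *Runx2* (355), and *Dlx3* (309.5), *Sp6* (306.5) and *Msx1* (294) lay close behind. *Dlx5* (74.5) stood last, after *Barx1* (87.8), and these ranges overlapped. The place of *Sp6* is uncertain in both genotypes, also against *Sp7*. Its reads cannot be told apart from those of Gm11532, which averaged 1915 normalized counts in WT where *Sp6* averaged 1938.

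The WT samples also differed from each other in a partly shared way. In WT, sample 2 was highest and sample 5 lowest for *Sp7*, *Sp6*, *Msx1*, *Msx2*, *Dlx3* and *Dlx5*, and the order was reversed for *Pax9*. The *Mmp13*-/- samples shared no such order, with *Sp6*, *Msx2* and *Dlx3* highest in sample 1, *Sp7* and *Msx1* in sample 2 and *Dlx5* in sample 6. Deviations from the genotype mean over the 6 samples had Pearson correlations of 0.78 to 0.93 among *Sp6*, *Msx1*, *Msx2* and *Dlx3*. Between each of these and *Pax9* they were −0.83 to −0.97. With the same genes, *Sp7* had 0.58 to 0.72 and *Dlx5* 0.21 to 0.74, and *Sp7* had 0.02 with *Dlx5*. These are descriptions over 6 libraries that share depth and composition. The markers of the epithelium that makes enamel did not share 1 order in WT. *Amelx*, with 42430, 11090 and 3841 normalized counts in samples 2, 4 and 5, and *Enam* ran as these 6 genes did, *Klk4*, *Epcam* and *Cdh1* ran in reverse, and *Ambn*, *Amtn*, *Odam*, *Krt5* and *Krt14* followed neither order. The oral mucosa keratins *Krt4*, at 61790, 74730 and 252600, and *Krt13*, at 41450, 61850 and 177800, also ran in reverse. The part of epithelium in the levels of the 9 genes was not tested.

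**Figure D2:**
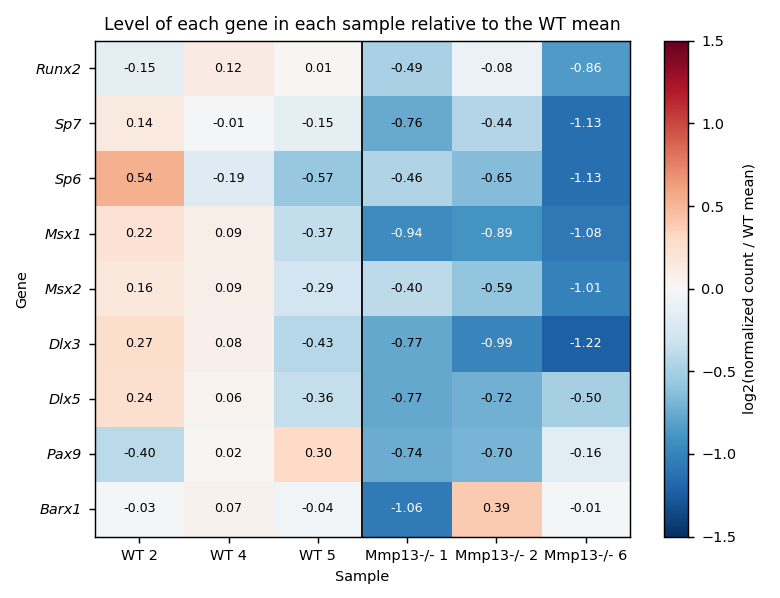
Level of each of the 9 genes (rows) in each sample (columns) as the log2 ratio of its normalized count to the WT mean, blue below and red above it. *Sp6* ranges from 0.54 to −0.57 within WT, *Pax9* runs from −0.40 to 0.30 over the same samples, and *Mmp13*-/- sample 6 is the lowest sample for *Dlx3* at −1.22.

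Over all 6 samples, the gene with the level most like that of each member was named by the highest Pearson correlation of log2 CPM, leaving out genes with a mean log2 CPM of 3 or less. For *Sp6* it was the overlapping Gm11532 (r = 0.9996), for *Msx1* D7Bwg0826e (r = 0.999), for *Sp7* *Rassf3* (r = 0.998) and for *Dlx5* Gm17435 (r = 0.997). *Dlx3* was most like *Kcnk2* (r = 0.994), *Runx2* like *Txndc11* (r = 0.992), *Msx2* like *Hmbox1* (r = 0.992), *Barx1* like Gm27177 (r = 0.991) and *Pax9* like *Arl4d* (r = 0.988). With 6 samples in a pair of genotypes such values are common, since 916 genes exceeded 0.95 with *Sp7* and 639 with *Msx1*, but only 11 did with *Pax9* and 5 with *Barx1*.

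The fold changes went with the base composition of the genes. Over 16983 protein-coding genes, Spearman's rho of the log2 fold change with the GC content of the longest transcript was −0.56, where genes are no replicates. In 10 bins by GC content of those with a mean log2 CPM above 3, the median log2 fold change ran from 0.81 in the lowest to −1.12 in the highest. The median protein-coding gene had 48.7% GC, and 7 of the 9 members were above it. *Runx2* (50.3% GC) had a value of −0.44 in a bin with a median of −0.44, *Sp7* (54.4%) −0.75 against −0.74, *Dlx5* (54.7%) −0.66 against −0.74, *Dlx3* (56.2%) −0.98 against −0.90 and *Msx1* (58.2%) −0.97 against −1.12. *Msx2* (48.5%) at −0.64 and *Pax9* (46.7%) at −0.51 lay below the medians of their bins, −0.26 and −0.06. *Sp6* (58.1%) at −0.72 and *Barx1* (65.0%) at −0.12 lay above that of the highest bin, −1.12, and 99.4% of protein-coding genes had a lower GC content than *Barx1*. *Barx1* itself lies below that level of log2 CPM, so its bin and its GC correction rest on genes with more counts.

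**Figure D3:**
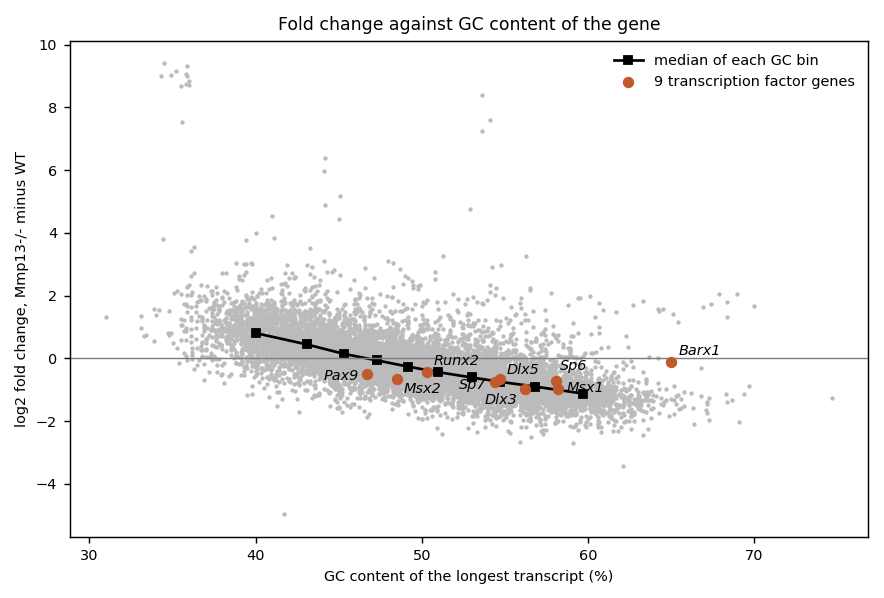
log2 fold change of protein-coding genes with a mean log2 CPM above 3 (grey), the median of each of 10 bins of them by GC content (black squares) and the 9 genes (orange), against the GC content of the longest transcript in percent. Medians run from 0.81 to −1.12, *Sp7* and *Runx2* lie on the line, *Msx2* and *Pax9* below it and *Barx1* far above it.

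When each sample was corrected for GC content before the test, 0 of the 9 genes were lower and 1, *Barx1*, was higher by edgeR's quasi-likelihood test, against 9.51% of all tested genes lower, 26.7% higher and 36.2% changed in either direction. At an unadjusted p under 0.05, 1 of the 9, *Msx2*, was lower. The corrected median of the 9 genes was 0.01, and that of all tested genes was 0.33. *Sp7* went to 0.01 (95% confidence interval −0.32 to 0.34), *Msx1* to 0.09 (−0.28 to 0.46), *Dlx3* to −0.08 (−0.51 to 0.35) and *Dlx5* to 0.13 (−0.40 to 0.67). *Msx2* kept most of its difference, at −0.40 (standard error 0.14, adjusted p = 0.0578 by the quasi-likelihood test in edgeR), and *Pax9* stood at −0.38 (adjusted p = 0.317 from the same test). *Barx1* was at 1.09 (95% confidence interval 0.28 to 1.90, adjusted p = 0.0423 by the quasi-likelihood test in edgeR), a call that held in 1 of 6 fits with a sample left out, the one without *Mmp13*-/- sample 1. *Sp6*, lower without the correction, was called higher with it when WT sample 2 was left out (0.65, adjusted p = 0.0247 by the quasi-likelihood test in edgeR). Whether base composition, library make-up or genotype sets the lower counts of these genes cannot be told apart with these libraries.

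**Figure D4:**
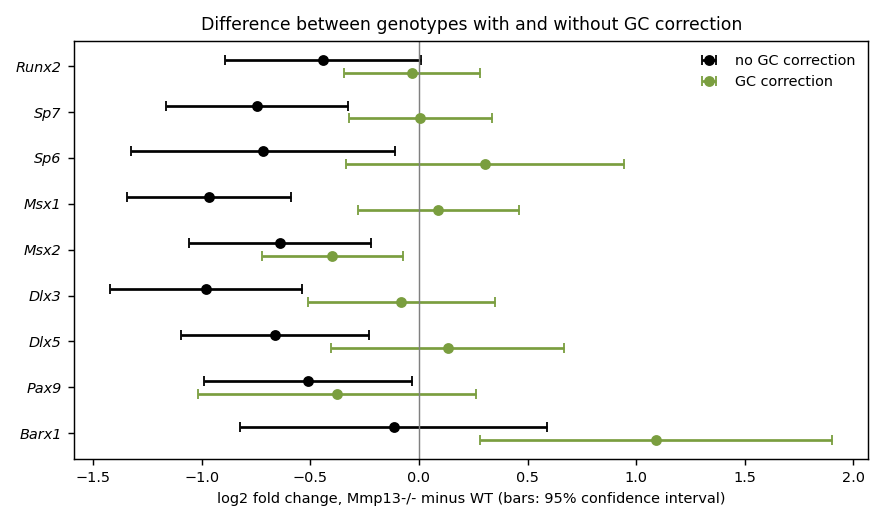
log2 fold change of each gene between genotypes with its 95% confidence interval, without (black) and with (green) correction of each sample for GC content. Without it, the intervals of all genes but *Runx2* and *Barx1* lie below 0, and with it only those of *Msx2*, below 0, and *Barx1*, above 0, exclude 0.

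A background rate was estimated from genes of other tissues. Reads spread evenly over exons, at the rate seen over odorant and vomeronasal receptor genes, would make up at most 0.259% of the counts of any of the 9 in WT. In *Mmp13*-/- they would make up at most 9.34%, for *Dlx5* in sample 6, and 8.25% for *Barx1* in the same sample. With that rate subtracted, 5 of the 9 remained lower, and *Sp6* did not pass (adjusted p = 0.0943 by the quasi-likelihood test in edgeR). Over all genes, 11163 were then called in either direction, against 12665 without the subtraction.

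Other regulators of tooth development moved in the same direction more often than not. Of 37 further dental transcription factors, 23 were lower and 2 higher, with a median of −0.71, against 24.3% of all tested genes lower and 27.3% higher. *Nfic*, which drives root and odontoblast formation, had the largest fall, from 5960, 6677 and 5656 normalized counts in WT to 1416, 1717 and 1135 in *Mmp13*-/- (log2 fold change −2.10, adjusted p = 6.5e-05 by the quasi-likelihood test in edgeR), and at −1.10 it was called after GC correction as well. *Twist1* (−1.25) and *Osr2* (−1.30) also fell, and *Klf4* fell by 0.61. *Lhx6* (0.10) and *Lhx8* (−0.08) did not pass. The largest rise was that of *Foxi3* (2.53), with at most 5.54 normalized counts in WT and 28.9 in *Mmp13*-/-. After GC correction 9 of the 37 were lower and 2 higher, with a median of −0.02, against 9.51% and 26.7% of all tested genes. *Osr2* (−0.61) was then still called, *Twist1* (−0.12) and *Klf4* (0.20) did not pass, and *Lhx6* (1.05) was higher.

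Relatives of the 9 genes did not all follow them. Of 16 paralogs, 13 were tested, with 5 lower and 4 higher, against 24.3% and 27.3% of all tested genes. *Dlx2* had 563.4, 562.9 and 441.1 normalized counts in WT and 185.2, 210.1 and 195.5 in *Mmp13*-/- and fell by 1.41, and *Dlx4*, which shares a locus with *Dlx3*, fell by 0.68. *Dlx6*, the neighbour of *Dlx5*, did not pass (−0.08, adjusted p = 0.813 by the quasi-likelihood test in edgeR), nor did *Dlx1* (−0.30). *Runx3* (−1.11) and *Runx1* (−0.43) fell. The SP family genes *Sp1* (0.55), *Sp3* (0.62) and *Sp4* (1.30), with 39.9% to 43.6% GC, rose, and *Pax1* had the largest rise (2.72). It went from at most 5.99 normalized counts in WT to 18.26, 17.9 and 70.35 in *Mmp13*-/- samples 1, 2 and 6. Sample 6 also had the highest background rate, 4.90 counts per kilobase, and *Pax1* has 4492 exon bases. With GC correction 1 of the 13, *Runx1* (−0.37), was lower and 3, *Sp1*, *Sp4* and *Pax1*, were higher, against 9.51% and 26.7% of all tested genes. The median went from −0.30 to 0.28. *Runx3* (−0.22), *Dlx2* (−0.35), *Dlx4* (0.32) and *Sp3* (−0.03) then did not pass.

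Among 22 partners and regulators of RUNX2, 14 were lower and 0 higher by edgeR's quasi-likelihood test, against 24.3% and 27.3% of all tested genes. At an unadjusted p under 0.05, and by DESeq2 or limma, 0 were higher too. *Cbfb*, which encodes the DNA-binding partner, had 2481, 2415 and 2343 normalized counts in WT and 2202, 2428 and 1442 in *Mmp13*-/-, and did not pass (−0.25, adjusted p = 0.297 by the quasi-likelihood test in edgeR). *Cebpb*, a partner at osteoblast promoters, had the largest fall (−1.75). With GC correction 6 were lower, *Cebpb* (−0.66) and now *Cbfb* (−0.65) among them, and 1 higher, against 9.51% and 26.7% of all tested genes. Of 14 tested genes for inducing ligands, 9 were lower and 0 higher by edgeR's quasi-likelihood test, beside the same 24.3% and 27.3% of all tested genes. Again 0 were higher at an unadjusted p under 0.05 and by DESeq2 or limma. *Bmp4*, the mesenchymal signal that *Msx1* and *Pax9* sustain, had 885.8, 773.7 and 778.5 normalized counts in WT and 526.7, 559.1 and 431.3 in *Mmp13*-/- and fell by 0.68, and *Tgfb1* had the largest fall (−1.76). With GC correction 3 were lower and 0 higher by the same test, against 9.51% and 26.7% of all tested genes, and *Bmp4* (−0.09) did not pass.

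The mineralized matrix genes on which these factors act were called in both directions, as were all tested genes. Of 19 genes, 7 were higher and 6 lower, against 27.3% and 24.3% of all tested genes, with a median of −0.22 that came to −0.01 with upper-quartile factors and 0.55 with GC correction. *Spp1* (osteopontin) had the largest rise (3.53), and *Ibsp*, a bone sialoprotein gene with RUNX2 and SP7 sites, rose from 2412, 2214 and 2532 normalized counts in WT to 6154, 9047 and 5939 in *Mmp13*-/- (1.56). *Dspp*, the odontoblast marker, rose by 1.13 with overlapping genotypes, since WT sample 2 (45020) lay above *Mmp13*-/- sample 6 (42970). *Phospho1* had the largest fall (−2.19), *Col1a1* fell by 2.16, and *Dmp1* did not pass (−0.22). The marker lists that follow stand beside the same 27.3% higher and 24.3% lower of all tested genes. Of 5 odontoblast markers 3 were higher and 1, *Nes*, lower, and of 6 pulp mesenchyme markers 1 was higher and 4 lower. Of 10 enamel epithelium markers 1 was higher and 2 lower, and *Amelx* (0.48) and *Ambn* (0.95) did not pass. Of 5 osteoblast and osteocyte markers 1 was higher and 1 lower. With GC correction, 26.7% of all tested genes were higher and 9.51% lower. In that fit, 3 odontoblast markers were higher and 0 lower, and for pulp mesenchyme these counts were 1 and 3. They were 2 and 0 for enamel epithelium, and 4 and 0 for osteoblasts and osteocytes. Sums of other cell types' markers moved with the genotype too. All 5 osteoclast markers were higher (70.2 to 75.5 CPM in WT, 202 to 525 in *Mmp13*-/-), as were 7 of 8 marrow and granulocyte markers, whereas 4 of 6 skeletal muscle markers were lower. After GC correction 5 osteoclast and 8 marrow and granulocyte markers were higher, and 5 skeletal muscle markers were lower. The shares of all tested genes were again 26.7% higher and 9.51% lower. Every marker in these lists had counts in at least 1 sample, and their part in the values of the 9 genes was not tested.

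**Figure D5:**
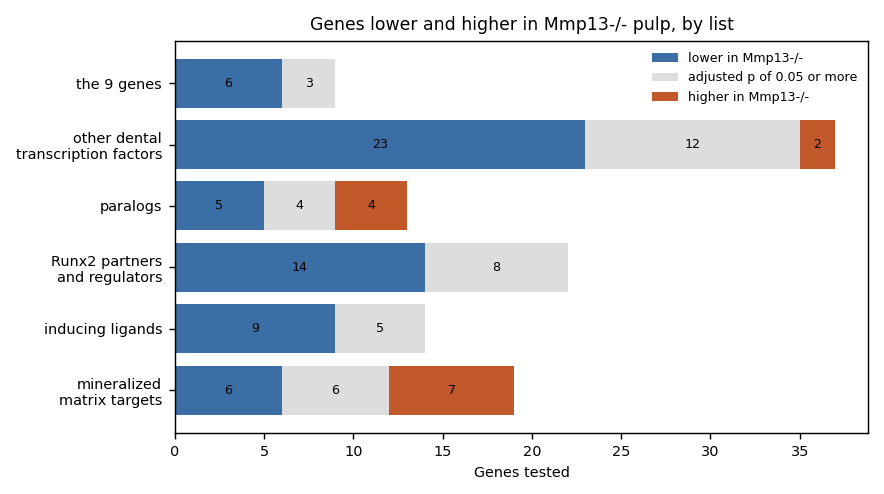
Number of tested genes in each list that were lower (blue), higher (orange) or at an adjusted p of 0.05 or more (grey) in *Mmp13*-/- pulp by edgeR's quasi-likelihood test. The 9 genes were 6 lower and 0 higher, the other dental transcription factors 23 lower and 2 higher, and the mineralized matrix targets 6 lower and 7 higher.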

How the data were processed

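Pulp RNA of 3 WT and 3 *Mmp13*-/- mice was sequenced as paired-end reads on an Illumina HiSeq, and each sample took its group from the genotype label. The authors quantified their reads per Ensembl gene in Strand NGS and deposited estimated counts, which carry fractions. The authors also deposited normalized log2 values, scaled by DESeq's median-of-ratios method with a threshold of 1, with every gene's median set to 0. These were computed again from the counts to within 2.35e-06. The build mm10 and DESeq are named in the submitters' processing notes, and the aligner, strand setting and annotation release are not given in the sources used here. The table held 0 columns of other samples.

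The rounded counts were compared between genotypes by edgeR 4.0.16 under R 4.3.3 (TMM factors, the filter on low counts by genotype, the quasi-likelihood test and Benjamini-Hochberg adjustment over 24534 genes). A gene was called at an adjusted p under 0.05. An exact permutation test of 3 against 3 cannot go below 0.1 and was not used. Counting error alone gives a chi-square near 1 per degree of freedom. Pairs of WT samples gave 24.2 to 46.3 and *Mmp13*-/- samples 1 and 2 gave 41.3, so the SD between samples was taken as the error. *Mmp13*-/- sample 6 gave 414 with sample 1 and 320 with sample 2. Pairs of a WT sample with *Mmp13*-/- sample 1 or 2 gave 293 to 403. DESeq2 1.42.0 and limma 3.58.1 were used as alternatives, with other scaling factors and filters, each sample left out in turn, a GC correction (a loess fit of each sample, span 0.4, over genes of mean log2 CPM above 3, entered as offsets) and subtraction of a background rate per kilobase over 1728 receptor genes. Simulated counts were used to check the 3 tools and the GC correction, and the outcome is not reported here. They gave every *Mmp13*-/- sample the same GC slope, so they do not cover a library that differs from its replicates, such as sample 6. GC content, exon length and position came from GENCODE M21 on GRCm38, matched for 99.8% of genes.

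The members, gene lists and tests were chosen with earlier results of these data known. Named are all 9 members, *Mmp13*, the genes with the largest rise and fall of each list among those called, and a short set of relatives, partners and targets chosen with the lists, of which some are not reported here. The oral keratins and the genes that overlap the members were added after their values were seen, as was the GC correction with samples left out.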

Additional observations from a re-analysis of the deposited data

How the results depend on the processing

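Over 6 leave-one-out fits *Sp7*, *Msx1*, *Msx2*, *Dlx3* and *Dlx5* stayed lower with an adjusted p under 0.05 from edgeR's quasi-likelihood test, and 5 to 6 of the 9 genes were lower (0 to 1 with GC correction as well, a combination chosen after seeing the data, with 0 to 1 higher, *Sp6* without WT sample 2 and *Barx1* without *Mmp13*-/- sample 1). The 9 genes had 4 lower with upper-quartile factors, 2 (*Msx1* and *Dlx3*) with total counts, 7 without the repeat family and the 10 most abundant genes in the factors, 8 without a filter, 5 with at least 10 counts in every sample, 6 with RLE factors or DESeq2, 7 with limma (*Pax9* added), 5 with background subtraction, and 0 lower and 1 higher with GC correction, alone or with background subtraction. All tested genes moved as well. In the main fit 5955 were lower, against 4618 with upper-quartile factors, 3065 with total counts and 5872 with RLE factors. The number was 6704 without the repeat family and the 10 most abundant genes, and 2333 with GC correction. For the other settings only counts in either direction are given, against 12665 in the main fit. They were 19292 without a filter, 10141 with at least 10 counts, 12633 with DESeq2, 12746 with limma and 11163 with background subtraction. Without a filter and with at least 10 counts, the number of genes tested differed too. Over 2-fold, the 0 genes became 2 with TMM factors without the repeat family, 2 without a filter, 2 with limma, 1 with GC correction (alone or with background subtraction), and 0 to 3 with samples left out, with 3 without WT sample 5 and 2 without *Mmp13*-/- sample 1 or 2. With GC correction alone and with background subtraction, the log2 fold changes that turned positive were those of *Sp7* (0.006 and 0.019), *Sp6* (0.303 and 0.304), *Msx1* (0.089 and 0.094), *Dlx5* (0.133 and 0.09) and *Barx1* (1.09 and 1.05). *Barx1* was also positive with upper-quartile factors (0.10), at least 10 counts (0.007) and background subtraction (0.001). With a sample left out, without and with GC correction, values ran from −0.717 to 0.042 for *Runx2*, −0.984 to 0.082 for *Sp7*, −1.01 to 0.65 for *Sp6*, −1.20 to 0.18 for *Msx1*, −1.231 to 0.041 for *Dlx3*, −0.89 to 0.23 for *Dlx5* and −0.54 to 1.49 for *Barx1*. Over all genes, 12665 were called at any fold, with 19292 without a filter, 7564 with GC correction and background subtraction together, 10915 to 12864 with samples left out, and 5308 to 8652 with samples left out and GC correction as well. Over 2-fold, 7381 were called, with 4666 at 10 counts, 14325 without a filter, 3047 against 2-fold itself, 3634 with both corrections, 7146 to 8751 with samples left out, and 3024 to 5637 with samples left out and GC correction. GC correction and upper-quartile factors moved the median of all genes from 0.10 to 0.33 and 0.31, and total counts moved it to 0.21. The share of calls that were higher, 53.0%, became 73.7%, 63.9% and 69.2% under the same settings, and 48.2% with TMM factors without the repeat family and the 10 most abundant genes. Except where the setting tests fewer or more genes, the cause was not tested. No paired analysis was possible because the genotypes share only replicate number 2. Depth limits *Barx1* most, with 73.05 to 189.9 estimated counts in a library.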
